A study of Mus musculus with 16 samples.

Results

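The genes described here encode binding proteins of the insulin-like growth factors (IGFs), 1 ligand and its receptor. The 8 members were given by symbol, as Igf1, Igf1r, Igfbp2, Igfbp3, Igfbp4, Igfbp5, Igfbp6 and Igfbp7, out of 26653 genes that appear in any of 3 deposited tables. They were chosen on their differences between mutant and control cells, so those differences are given as a description. The embryonic stem cell (ESC) table holds 6 of the 8 members, that of mouse embryonic fibroblasts (MEFs) holds 7 and that of mouse kidney fibroblasts (MKFs) 7, and 5 members are in all 3. Igf1 and Igfbp6 in ESCs, and Igfbp3 in MEFs and MKFs, were not analysed here. All analysed members passed the filter on low values, a mean value of at least 1.

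The study measured total RNA of 16 mouse samples in 8 groups of 2 libraries. ESCs carried an Actb knockout (KO), a full deletion of the Actb locus, or were wild type. MEFs carried an Actg1 KO, a full deletion of the Actg1 locus, or were wild type. MKFs carried a Kindlin-2 KO, or floxed Kindlin-2 alleles. The labels name no strain, sex, clone or Cre driver, and do not say whether libraries of a group came from separate cultures, so the spread between them may be technical. Actb and Actg1 encode the cytoplasmic actins, and Kindlin-2, symbol Fermt2, activates integrins. A KO and a locus deletion differ in the DNA removed as well as in transcripts of the target gene, and may come from different clones. Their comparison therefore does not isolate transcription of the mutant gene.

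IGF1 and IGF2 bind the receptor tyrosine kinase IGF1R, which signals through insulin receptor substrates to PI3 kinase and AKT and through them restrains FOXO factors. IGF binding proteins hold the ligands outside the cell, prolong their life and keep them from the receptor, and proteases such as PAPP-A release the ligand again by cutting them. IGFBP7 differs from the others in its low affinity for IGFs, and fibroblasts are a known source of several of these secreted proteins.

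Each targeted gene was lower in its mutants than in the controls, to different degrees. Actb had 23650 and 22707 normalised read counts in KO ESCs, 2372 and 2336 after locus deletion, and 36364 and 34140 in wild-type ESCs, so that 6.68 percent of the wild-type mean was still counted after a deletion labelled as full. Actg1 had 1004 and 1026 in KO MEFs, 25 and 15 after locus deletion, and 5737 and 5672 in wild-type MEFs, which left 0.351 percent of the wild-type mean after locus deletion. Fermt2 had 1251 and 1240 in KO MKFs, against 3078 and 3142 in floxed MKFs. The values summed to between 15565648 and 22094490 per library. The pluripotency genes Pou5f1, Sox2 and Nanog were abundant in all ESC libraries. All 10 fibroblast markers were analysed in MEFs, though some were low there. In wild-type MEFs Thy1 had 11 and 3, Lum 7 and 10, and Dcn 17 and 14. In MKFs the defining fibroblast markers were low or not analysed here: Col1a1 had 10 and 8 in KO and 49 and 64 in floxed MKFs, and Pdgfrb had 1 and 0 in KO and 10 and 11 in floxed MKFs.

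The stretches of 250 bases before the annotated start of 4 members are shown because Igfbp5 and Igfbp4 had large differences, Igfbp7 led the levels in most fibroblast groups and Igf1r is the receptor. They come from RefSeq on GRCm38.p6, are written 5′ to 3′ on the strand of the gene, and show matches to the searched motifs in capitals. Igfbp5 lies at chr1:72874866-72875115 on the minus strand, Igfbp4 at chr11:99040994-99041243 on the plus strand, Igfbp7 at chr5:77408046-77408295 on the minus strand and Igf1r at chr7:67952007-67952256 on the plus strand.
Igfbp5: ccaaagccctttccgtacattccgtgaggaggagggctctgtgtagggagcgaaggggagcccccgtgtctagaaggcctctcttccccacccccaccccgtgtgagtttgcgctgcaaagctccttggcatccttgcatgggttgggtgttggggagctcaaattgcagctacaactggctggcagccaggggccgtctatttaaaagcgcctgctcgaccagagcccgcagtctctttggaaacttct
Igfbp4: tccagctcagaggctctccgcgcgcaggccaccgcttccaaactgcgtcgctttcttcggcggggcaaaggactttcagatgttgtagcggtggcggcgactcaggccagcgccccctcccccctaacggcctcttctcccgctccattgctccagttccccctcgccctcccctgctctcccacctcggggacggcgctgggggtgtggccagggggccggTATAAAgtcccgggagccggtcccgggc
Igfbp7: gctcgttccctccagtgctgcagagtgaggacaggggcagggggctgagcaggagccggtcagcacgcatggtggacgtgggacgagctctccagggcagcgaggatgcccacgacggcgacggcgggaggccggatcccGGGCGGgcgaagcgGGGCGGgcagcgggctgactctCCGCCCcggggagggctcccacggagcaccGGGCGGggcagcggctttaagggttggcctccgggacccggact
Igf1r: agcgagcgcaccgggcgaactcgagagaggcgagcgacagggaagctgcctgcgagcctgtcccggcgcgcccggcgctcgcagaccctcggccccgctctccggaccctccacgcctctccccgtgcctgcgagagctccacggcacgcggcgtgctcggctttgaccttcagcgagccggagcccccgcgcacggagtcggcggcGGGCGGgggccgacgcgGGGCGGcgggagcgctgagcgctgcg
The motifs were searched on both strands, and each is given with the share of all 32817 RefSeq windows of this length that held it. They were TATAAA (12.4 percent), GGGCGG (32.7 percent), CACGTG (6.02 percent), TGTTTAC (3.16 percent) and the CArG box (1.47 percent). Igfbp4 held 1 TATAAA whose first base lies 28 bases before the start. The Igfbp7 window held 4 matches to GGGCGG or its reverse complement, and that of Igf1r held 2, while the Igfbp5 window held none of the motifs. The observed over expected ratio of CpG was 1.12 for Igf1r, 0.788 for Igfbp7, 0.748 for Igfbp4 and 0.463 for Igfbp5, against a median of 0.373 over all windows. All 8 members matched the promoter table, and the windows of Igf1 and Igfbp3 also held none of the motifs.

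Levels were compared between genes per length, as the value per 1000000 of the library's sum and per 1000 bases of exon. In ESCs Igfbp2 had the highest level of the 6 members in all 3 groups, at 24.2 ± 3.18 in KO, 45.5 ± 1.64 after locus deletion and 56.3 ± 19.6 in wild type (SD, n = 2 each). Igfbp3, Igf1r, Igfbp4, Igfbp7 and Igfbp5 stood between 0.147 and 2.80 in ESCs. Igfbp3 and Igf1r were not separate from each other in KO ESCs, nor Igfbp7 and Igfbp5 after locus deletion. In MEFs the highest level was that of Igfbp5 in KO, at 81.0 ± 3.06, ahead of Igfbp7 at 70.6 ± 1.20, while Igfbp7 led after locus deletion at 47.0 ± 2.48 and in wild type at 21.9 ± 0.336. Igf1r followed in each MEF group, at 11.58 in KO, 13.99 after locus deletion and 11.04 in wild type. Igfbp7 also led in MKFs, at 32.4 ± 0.357 in KO and 54.1 ± 4.74 in floxed cells, again followed by Igf1r at 5.27 and 9.36. At the low end, Igf1 and Igfbp2 were not separate in KO or wild-type MEFs. In KO MKFs Igfbp5 was not separate from Igfbp6 or from Igfbp2. Levels set across cell types are approximate, since they depend on what else is in the library's sum. Mitochondrial ribosomal RNA made up 10.71 to 16.97 percent of it. Over the sum of protein-coding genes outside mitochondria, Igfbp7 in wild-type MEFs was at 27.3.

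**Figure D1:**
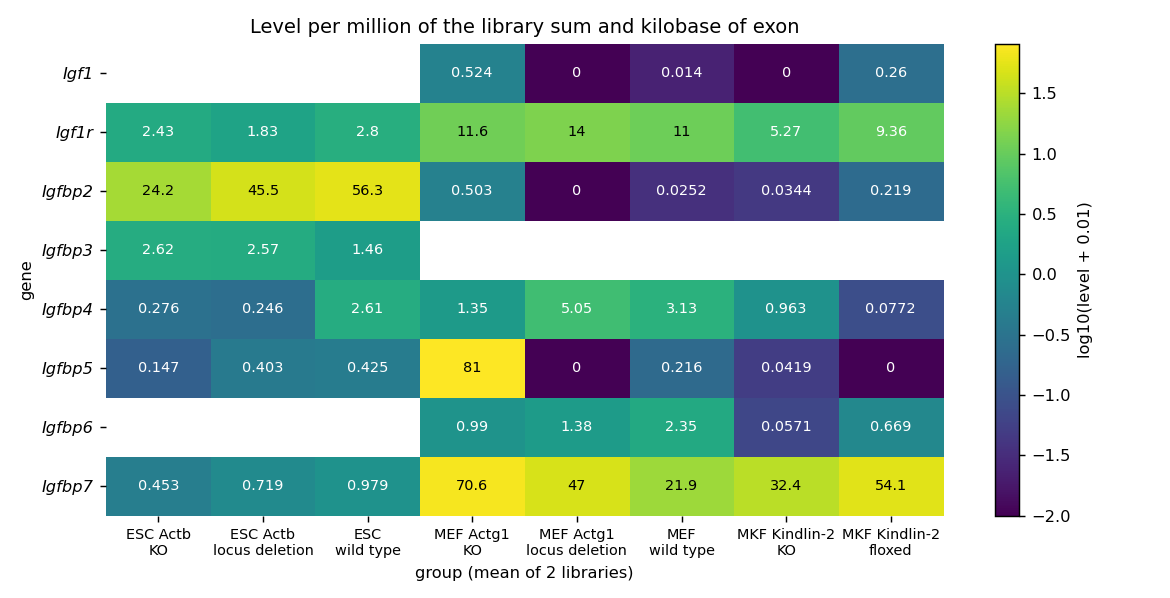
Mean level of each member per 1000000 of the library sum and kilobase of exon (rows) in the 8 groups (columns, 2 libraries each), coloured by log10 of the level plus 0.01, with the level printed in each cell; white cells were not analysed here. Igfbp2 leads in the ESC groups, Igfbp5 in KO MEFs at 81.0, and Igfbp7 in the other MEF and MKF groups.

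Igf1, the ligand, was higher in KO MEFs than in the other MEF groups, and at 0 in KO MKFs. It had 113 and 99 normalised read counts in Actg1 KO MEFs, 0 and 0 after locus deletion, and 3 and 3 in wild-type MEFs. In MKFs it had 0 and 0 in Kindlin-2 KO cells, against 43 and 40 in floxed cells. No groups of a cell type overlapped. The log2 fold change, on the log2(value + 1) scale as everywhere here, was 4.74 ± 0.404 (SE) for KO against wild-type MEFs and -2.0 ± 0.404 for locus deletion against wild-type MEFs. In MKFs KO was at least 13.4-fold lower than floxed, counting a library at 0 as what 3 reads are worth there, as in every such bound. KO MEFs were at least 35.3-fold higher than MEFs with the locus deletion. The lower call after locus deletion rests on values of 3 and was lost without either wild-type library, with a pseudocount of 5 and in a fit of the compared libraries alone.

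Igf1r, the receptor, had log2 fold changes of at most 0.86 in size against the controls in the 3 tables. In ESCs it had 667 and 673 in KO, 496 and 491 after locus deletion and 756 and 750 in wild type, with no overlap between groups. The log2 fold change was -0.17 ± 0.105 in KO and -0.61 ± 0.105 after locus deletion against wild type. In MEFs it had 3835 and 4109 in KO, 5104 and 5165 after locus deletion and 4170 and 3838 in wild type. KO and wild-type MEFs overlapped, at a log2 fold change of -0.01 ± 0.064, while locus deletion was higher by 0.36 ± 0.064. In MKFs it had 1340 and 1450 in KO, against 2580 and 2486 in floxed cells, a log2 fold change of -0.86 ± 0.054. The call after Actb locus deletion was lost with any 1 of the 4 libraries left out, and that in MKFs without either floxed library. The call after Actg1 locus deletion was kept only without wild-type library 1.

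Igfbp5 had the largest difference of the members analysed, in MEFs. Its protein binds both IGFs and the extracellular matrix. It had 9613 and 10257 normalised read counts in Actg1 KO MEFs, 0 and 0 after locus deletion, and 32 and 24 in wild-type MEFs. KO libraries were thus far above wild type, and both libraries with the locus deletion were at 0. The ratio of means was 355 for KO against wild type, with a log2 fold change of 8.43 ± 0.199. After locus deletion Igfbp5 was at least 9.32-fold lower than in wild type, and in KO it was at least 3306-fold higher than after locus deletion. These calls were kept with any 1 library left out. In ESCs Igfbp5 had 18 and 11 in KO, 36 and 42 after locus deletion and 41 and 41 in wild type, so KO libraries were low and the other groups overlapped. The log2 fold change was -1.48 ± 0.309 in KO and -0.07 ± 0.309 after locus deletion. The KO call in ESCs was lost with any 1 library left out. In MKFs Igfbp5 had 7 and 1 in KO and 0 and 0 in floxed cells, near the value of 3 reads.

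Igfbp5 (ENSMUSG00000026185, GRCm38 chr1:72857932-72874884, minus strand) and Igfbp2 (ENSMUSG00000039323, chr1:72824503-72852474, plus strand) are neighbours, 5457 bases apart. Igfbp2 had 17 and 21 in KO MEFs, 0 and 0 after locus deletion and 2 and 0 in wild type, a log2 fold change of 3.52 ± 0.636 for KO, which was not called without either KO library. A window of 500 kilobases around Igfbp5, chosen after the values were seen, held 6 other genes analysed. March4 and Gm38106 were called higher in KO against wild type, as were 20.6 percent of all genes, and 4 were not called. Rpl37a had 1129 and 1021 in KO and 1014 and 1026 in wild-type MEFs, and Smarcal1 394 and 378 in KO and 413 and 421 in wild-type MEFs. March4, a ubiquitin ligase, had 30 and 19 in KO and 3 and 8 in wild-type MEFs.

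In ESCs Igfbp2 was the abundant binding protein. It had 807 and 661 in KO, 1319 and 1390 after locus deletion and 2081 and 1255 in wild type. KO libraries were below all others, and the locus deletion overlapped wild type, whose libraries differed widely. The log2 fold change was -1.15 ± 0.215 in KO and -0.26 ± 0.215 after locus deletion, and the KO call was lost with any 1 of the 4 libraries left out. In MKFs Igfbp2 had 1 and 1 in KO and 7 and 6 in floxed cells, a called difference at very low values that was lost without KO library 2.

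Igfbp4, a substrate of the protease PAPP-A, was lower than in the controls in both ESC mutants and KO MEFs, and higher in KO MKFs and after Actg1 locus deletion. In ESCs it had 16 and 24 in KO, 17 and 18 after locus deletion and 184 and 186 in wild type. Both mutants were far below wild type and overlapped each other, with log2 fold changes of -3.17 ± 0.264 in KO and -3.33 ± 0.264 after locus deletion. In MEFs it had 141 and 103 in KO, 452 and 524 after locus deletion and 308 and 290 in wild type. KO was lowest and locus deletion highest, with log2 fold changes of -1.30 ± 0.158 and 0.70 ± 0.158 against wild type. In MKFs it had 67 and 67 in KO, against 5 and 6 in floxed cells, a ratio of 12.2 and a log2 fold change of 3.39 ± 0.223. The ESC calls were lost without either wild-type library, and for KO also without KO library 1. The call after Actg1 locus deletion was lost with any 1 of the 4 libraries left out.

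Igfbp3, whose protein carries most IGF in blood, had 108 and 161 in KO ESCs, 129 and 130 after locus deletion and 67 and 80 in wild type. Both mutants were above wild type without overlap, at log2 fold changes of 0.84 ± 0.221 and 0.81 ± 0.221. Neither was called. With the library number as a replicate block, since same-numbered ESC libraries varied alike, both were called.

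Igfbp6, which prefers IGF2, had 21 and 24 in KO MEFs, 32 and 35 after locus deletion and 61 and 52 in wild type. The 3 groups did not overlap and both mutants were lower, by log2 fold changes of -1.29 ± 0.239 (called) and -0.73 ± 0.239 (not called). In MKFs Igfbp6 had 1 and 1 in KO and 11 and 13 in floxed cells.

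Igfbp7, a matrix-associated relative with low affinity for IGFs, was higher in both MEF mutants and lower in KO MKFs than in the controls. In MEFs it had 1755 and 1733 in KO, 1275 and 1209 after locus deletion and 564 and 582 in wild type, ratios to wild type of 3.04 and 2.17. The log2 fold changes of 1.6 ± 0.064 and 1.11 ± 0.064 were kept with any 1 library left out. In MKFs it had 629 and 604 in KO, against 976 and 1133 in floxed cells, a log2 fold change of -0.77 ± 0.084 that was kept only without floxed library 1. In ESCs it had 9 and 9 in KO, 8 and 20 after locus deletion and 23 and 15 in wild type, and was not called.

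**Figure D2:**
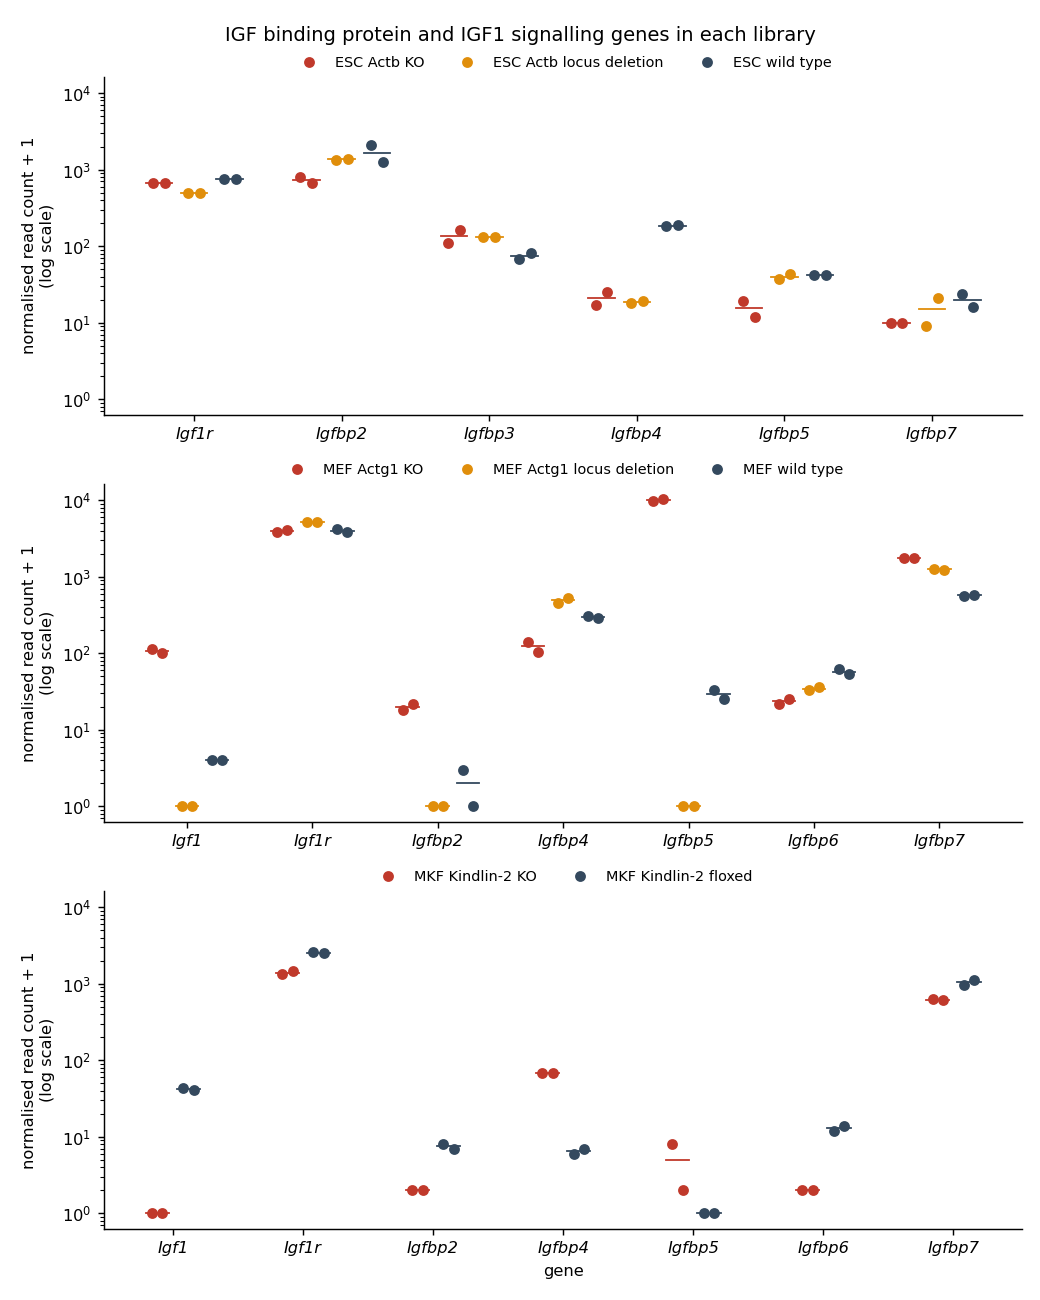
Normalised read count plus 1 (log axis) of each analysed member in every library of ESCs, MEFs and MKFs (panels from top to bottom), with 1 point per library and a line at the mean of a group. In MEFs the Igfbp5 points of KO libraries lie at 9613 and 10257 and those of the locus deletion at a count of 0, while in ESCs the Igfbp4 points of both mutants lie below 25 and those of wild type above 180.

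The summed normalised read counts of the 5 binding proteins measured in MEFs were 11547 and 12138 in KO. They were 1759 and 1768 after locus deletion and 967 and 948 in wild type. Igfbp5 made up 83.3 and 84.5 percent of these counts in KO. The counts are not corrected for length, and Igfbp5 has 6006 bases of exon, against 1209 for Igfbp7. Per length these genes stood closer in KO MEFs, Igfbp5 at 81.0 and Igfbp7 at 70.6. In ESCs the sum was 958 and 866 in KO, 1509 and 1600 after locus deletion and 2396 and 1577 in wild type, most of it Igfbp2. In MKFs the sum was 705 and 674 in KO, against 999 and 1158 in floxed cells, most of it Igfbp7.

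The number of members called by limma at an adjusted p below 0.05 is given beside the share of all genes called, and nothing is read from it, since these contrasts chose the members. In Actb KO against wild-type ESCs 3 of 6 members were called, all lower, where 4.88 percent of 23054 genes were called, 2.44 percent higher and 2.44 percent lower. With a replicate block Igfbp3 was called as well, higher in KO, where 1850 of 23054 genes were called. After Actb locus deletion 2 of 6 were called, both lower, where 11.2 percent of genes were called, 5.19 percent higher and 6 percent lower. The block added Igfbp3 here too, higher after locus deletion, where 3727 of 23054 genes were called. Between Actb KO and locus deletion 1 of 6 was called, Igfbp5, lower in KO, where 4.88 percent of genes were called, 2.56 percent higher and 2.32 percent lower. With a replicate block 3 of 6 were called there, Igf1r and Igfbp2 with Igfbp5, where 1735 of 23054 genes were called. In Actg1 KO against wild-type MEFs 6 of 7 members were called, 4 higher and 2 lower, where 39.7 percent of 21589 genes were called, 20.6 percent higher and 19.1 percent lower. After Actg1 locus deletion 5 of 7 were called, 3 higher and 2 lower, where 22 percent of genes were called, 9.46 percent higher and 12.6 percent lower. Between Actg1 KO and locus deletion 6 of 7 were called, 4 higher and 2 lower in KO, where 45.2 percent of genes were called, 24.5 percent higher and 20.7 percent lower. In Kindlin-2 KO against floxed MKFs 6 of 7 were called, 1 higher and 5 lower, where 49.2 percent of 18288 genes were called, 24.3 percent higher and 24.9 percent lower. The median log2 fold change of the members was -1.06, -0.38, -0.22, 1.6, -0.73, 0.49 and -0.86 in this order of comparisons, against medians between 0.00 and 0.07 over all genes. KO and locus deletion share their wild-type libraries. In each Actb comparison 0 or 1 of 6 members was called with any 1 library left out, and after Actg1 locus deletion 2 or 3 of 7.

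**Figure D3:**
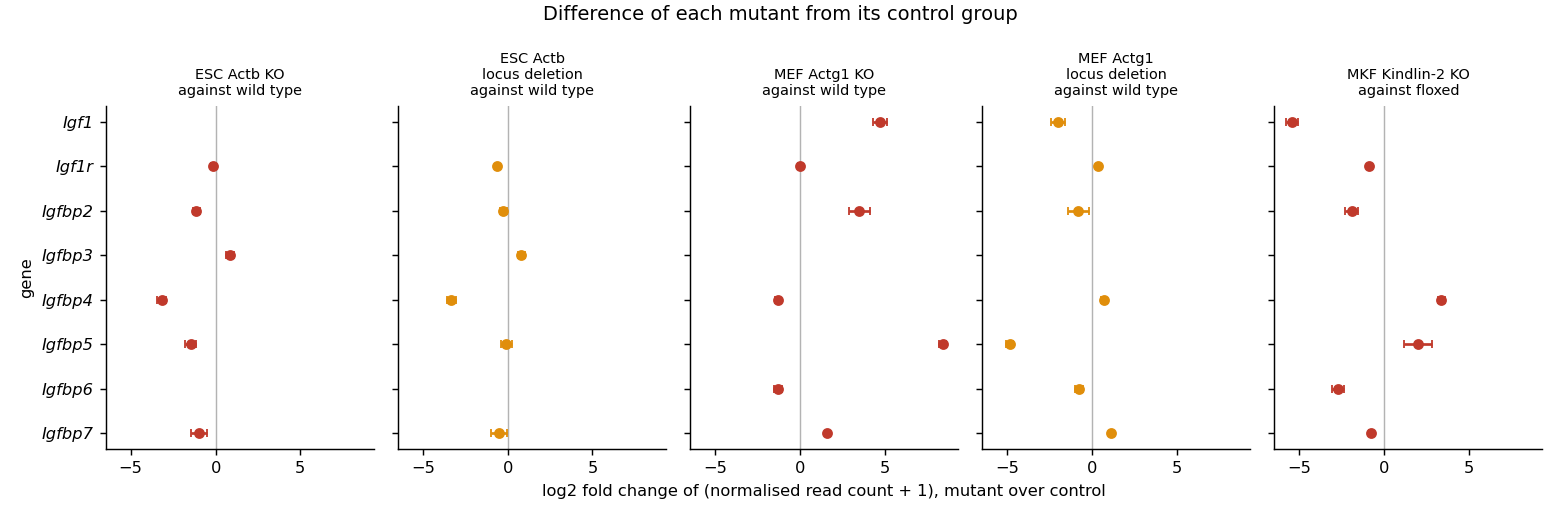
Log2 fold change of (normalised read count + 1) of each member, with its standard error from limma as a bar, in the 5 comparisons of a mutant with its control group (2 libraries each); blank positions were not analysed here. Igfbp5 lies at 8.43 in KO MEFs and at -4.84 after locus deletion, and Igfbp4 lies below 0 in both ESC mutants and KO MEFs and above 0 in the other comparisons.

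Markers of fibroblasts and of other cell types differed between the same libraries, and their part in the results was not tested. In Actg1 KO MEFs the matrix proteoglycan Dcn had 8037 and 7653 in KO, 12 and 5 after locus deletion and 17 and 14 in wild type, and Lum had 4555 and 4508, 1 and 0, and 7 and 10 in the same order. Of the 10 fibroblast markers 5 were called higher and 3 lower in KO against wild-type MEFs, where 39.7 percent of all genes were called. The 3 lower were Vim, Pdgfrb and S100a4. Vim had 41304 and 43759 in KO, against 126213 and 129947 in wild type. Pdgfrb had 1332 and 1374 in KO, against 2282 and 2174, and S100a4 58 and 62, against 156 and 221. Among those that rose, Col1a1 had 84930 and 91165 in KO, against 15137 and 13197 in wild type. The 10 markers summed to 186405 to 195790 in KO. The sum was 122543 to 134729 after locus deletion and 164615 to 165066 in wild type. Sox2, a gene of stem and neural cells, had 1326 and 1306 in KO MEFs, 0 and 0 after locus deletion and 44 and 32 in wild type. In Kindlin-2 KO MKFs all 5 epithelial markers were called higher, as were 24.3 percent of all genes. The epithelial markers summed to 19795 to 20296 in KO, against 2046 to 2190 in floxed cells. The cadherin Cdh1 had 1399 and 1531 in KO, against 10 and 16 in floxed cells. In MKFs the 5 fibroblast markers analysed summed to 26715 to 27650 in KO and 32620 to 33257 in floxed cells, nearly all of it Vim. In bulk RNA fewer cells of a type and less RNA per cell cannot be told apart. In ESCs the 8 stem cell markers summed to 41746 to 41837 in KO, 42562 to 43071 after locus deletion and 39144 to 40465 in wild type. Of the 5 fibroblast markers analysed in ESCs, which feeder cells would also express, none was called in KO. Pdgfrb and Thy1 were called lower after locus deletion, as were 6 percent of all genes. Pdgfrb had 35 and 51 in KO ESCs, 19 and 22 after locus deletion and 68 and 62 in wild type. Thy1 had 6 and 12 in KO, 7 and 7 after locus deletion and 25 and 26 in wild type, and Col1a1 had 9 to 14 in all ESC libraries. The 5 epithelial markers, which ESCs share, summed to 9872 to 9940 in KO ESCs, 7841 to 8027 after locus deletion and 12780 to 13289 in wild type, most of it Cdh1. The keratin gene Krt18 had 339 and 302 in KO ESCs, 15 and 15 after locus deletion and 88 and 60 in wild type, and Krt8 had 344 and 286 in KO, 26 and 24 after locus deletion and 105 and 92 in wild type. Both were called higher in KO and lower after locus deletion. Of the 5 epithelial markers 2 were called higher and 1 lower in KO, where 2.44 percent of all genes were called each way. After locus deletion 3 were called lower, as were 6 percent of all genes. In KO Cdh1 had 8280 and 8370, against 12186 and 11800 in wild type, and Cldn4 343 and 311, against 430 and 408. Epcam lay above wild type in KO, at 634 and 603 against 480 and 420. Of the 4 neuronal markers the neurofilament genes Nefl and Nefm were called higher in both ESC mutants, and Map2 and Tubb3 were not called. Of all genes 2.44 percent were called higher in KO and 5.19 percent after locus deletion. Nefm had 1033 and 865 in KO, 661 and 928 after locus deletion and 166 and 129 in wild type. Map2 had 52 and 57, 52 and 50, and 57 and 75 in the same order. Tubb3 had 729 and 978, 1132 and 1435, and 747 and 926. The 4 neuronal markers summed to 2764 to 2845 in KO ESCs, 2592 to 3516 after locus deletion and 1342 to 1444 in wild type.

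The other genes of the pathway were taken from 6 lists with 83 genes in all. Their median log2 fold change, in the order of comparisons above, was 0.01, 0.02, -0.07, 0.23, 0.00, 0.18 and -0.22. In Actb KO against wild-type ESCs 14 of 73 genes tested were called by limma, 7 higher and 7 lower. Of all genes 4.88 percent were called there, 2.44 percent higher and 2.44 percent lower. The second ligand Igf2 rose, with 91 and 127 in KO, against 18 and 39 in wild type (log2 fold change 1.98 ± 0.388, limma adjusted p = 0.0284). The insulin receptor gene Insr fell, with 377 and 390 in KO, against 709 and 858 in wild type (log2 fold change -1.02 ± 0.129, limma adjusted p = 0.00491). Stc2, a stanniocalcin that inhibits PAPP-A, had 34 and 35 in KO, against 202 and 177 in wild type, and fell by 2.42 ± 0.189 (limma adjusted p = 0.000565). Of the 31 genes tested in the list of receptor adaptors, PI3 kinase, AKT and mTOR 1 rose and 2 fell. That list also holds genes that restrain the pathway, such as Grb10 and Tsc2. Of the 18 FOXO genes and targets 2 fell, Ccng2 and Cdkn1b. With any 1 of the 4 libraries left out, 0 of the 73 were called.

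After Actb locus deletion 22 of 73 genes were called, 13 higher and 9 lower. Of all genes 11.2 percent were called there, 5.19 percent higher and 6 percent lower. Igf2 fell here, with 7 and 8 after locus deletion, against 18 and 39 in wild type (log2 fold change -1.70 ± 0.388, limma adjusted p = 0.0270). Insr fell as well, with 421 and 427 after locus deletion, against 709 and 858 in wild type, and so did Stc2, with 59 and 63 against 202 and 177. Htra1, a secreted protease that can cut binding proteins, rose by a log2 fold change of 1.82 ± 0.113 (limma adjusted p = 0.000121). Of the 31 genes tested in the list of receptor adaptors, PI3 kinase, AKT and mTOR 8 rose and 2 fell. The insulin receptor substrate Irs2 was among those that rose, at 0.81 ± 0.116. With any 1 library left out, 1 to 4 of the 73 were called. Between Actb KO and locus deletion 9 of 73 were called, 5 higher and 4 lower in KO, and 17 with a replicate block. Of all genes 4.88 percent were called there without the block, and 1735 of 23054 genes with it. Igf2 was among those higher in KO, by 3.68 ± 0.388 (limma adjusted p = 0.00281).

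In Actg1 KO against wild-type MEFs 53 of 75 genes were called, 34 higher and 19 lower. Of all genes 39.7 percent were called there, 20.6 percent higher and 19.1 percent lower. Igf2 rose, with 63 and 92 in KO, 3 and 4 after locus deletion and 10 and 9 in wild type (log2 fold change for KO 2.88 ± 0.361, limma adjusted p = 0.000542). Of the 7 proteases and stanniocalcins tested 4 rose and none fell. This list holds both proteases and their stanniocalcin inhibitors, and the 4 were Htra1, Pappa, Adam12 and the stanniocalcin Stc1. Stc1 had a mean of 411.5 in KO, against 152 in wild type, a rise of 1.45 ± 0.149 (limma adjusted p = 0.0002). Htra1 had 967 and 1002 in KO, 12 and 9 after locus deletion and 56 and 56 in wild type, a rise of 4.11 ± 0.178 in KO (limma adjusted p = 4.61e-06). Pappa, which encodes PAPP-A, had 221 and 245 in KO, 43 and 31 after locus deletion and 69 and 58 in wild type, a rise of 1.86 ± 0.206 (limma adjusted p = 0.000285). Htra1 and Pappa were high in KO libraries and lowest after locus deletion.

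Igf2r, the receptor that clears IGF2, had 7111 and 7185 in KO, 6839 and 7852 after locus deletion and 8237 and 7339 in wild-type MEFs, and was not called against wild type. Insr rose by 0.48 ± 0.071 in KO MEFs, a call lost without either KO library. Igfbp1 was not analysed here. Below the receptor, Irs1, an insulin receptor substrate, had 902 and 963 in KO, 1136 and 1195 after locus deletion and 2129 and 1938 in wild-type MEFs. It fell in KO by 1.12 ± 0.073 (limma adjusted p = 2.39e-05) and after locus deletion by 0.80 ± 0.073 (limma adjusted p = 0.000332). Grb10, an adaptor that restrains IGF1R and insulin receptor signalling, had 4182 and 4501 in KO, 8572 and 9267 after locus deletion and 8885 and 8251 in wild type, and fell in KO by 0.98 ± 0.069. Grb14, a related adaptor, rose to 1234 and 1243 in KO and 773 and 719 after locus deletion, against 144 and 147 in wild type. Of the 17 FOXO genes and targets 9 rose and 4 fell in KO, where 20.6 percent of genes rose and 19.1 percent fell. Txnip, a thioredoxin inhibitor, rose by 2.44 ± 0.157. Igf2bp2, which binds IGF2 mRNA, had 1290 and 1355 in KO, 5382 and 6205 after locus deletion and 5669 and 5379 in wild type, with a log2 fold change of -2.06 ± 0.078 in KO. Without KO library 1 or KO library 2, 32 and 34 of the 75 were called.

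After Actg1 locus deletion 33 of 75 were called, 16 higher and 17 lower. Of all genes 22 percent were called there, 9.46 percent higher and 12.6 percent lower. Htra1 fell by 2.32 ± 0.178 (limma adjusted p = 0.000154), and Igf2, at 3 and 4 against 10 and 9, by 1.23 ± 0.361 (limma adjusted p = 0.0470), which was lost with any 1 library left out. Wisp1, a secreted matrix protein with an IGFBP-type domain, rose to 1290 and 1315 after locus deletion and to 2464 and 2576 in KO, against 653 and 566 in wild type. Without wild-type library 1 or 2, 15 and 20 of the 75 were called. Between Actg1 KO and locus deletion 54 of 75 were called, 33 higher and 21 lower in KO. Of all genes 45.2 percent were called there, 24.5 percent higher and 20.7 percent lower.

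In Kindlin-2 KO against floxed MKFs 51 of 68 genes were called, 19 higher and 32 lower. Of all genes 49.2 percent were called there, 24.3 percent higher and 24.9 percent lower. Igf2r had 1993 and 2256 in KO, against 481 and 510 in floxed cells, a rise of 2.10 ± 0.076 (limma adjusted p = 0.000106). Insr had 709 and 772 in KO, against 1606 and 1577, and fell by 1.10 ± 0.058 (limma adjusted p = 0.000228), a call lost without either floxed library. Both insulin receptor substrates rose: Irs1 had 1186 and 1290 in KO, against 573 and 572, and Irs2 had 441 and 425 in KO, against 138 and 151. Wisp1 had 97 and 79 in KO, against 1890 and 1820, and Igf2bp3 had 21 and 17 in KO, against 332 and 344. Both fell, Wisp1 with a log2 fold change of -4.39 ± 0.111 and Igf2bp3 with -4.09 ± 0.146 (limma adjusted p = 5.23e-05 and 0.000102). Of the 17 FOXO genes and targets 7 rose and 8 fell, with Sesn3, a sestrin, falling by 1.69 ± 0.038. Without floxed library 1 or 2, 18 of the 68 were called, and the Irs1 call was lost.

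**Figure D4:**
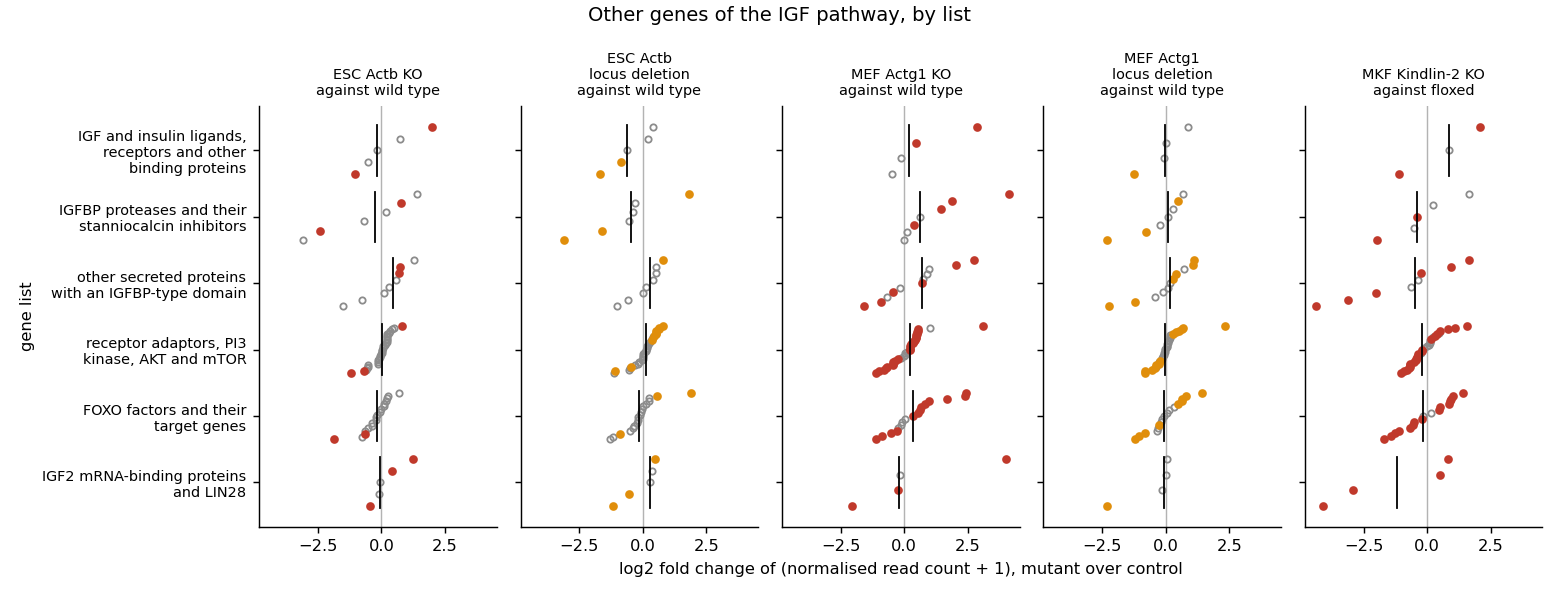
Log2 fold change of (normalised read count + 1) of the genes of 6 pathway lists (rows) in the 5 comparisons of a mutant with its control group; filled points were called by limma, open points were not, and black lines mark the median of a list. The proteases and stanniocalcins called in KO MEFs all lie above 0, and the medians of the 2 longest lists lie within 0.34 of 0 in all panels.

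Only Igf1r and Igfbp4 had a mean of at least 20 in all 3 tables, and the genes most like them were sought among 10683 genes over the 10 mutant libraries, each as its difference from the mean of its control libraries. Ube3a, Pold3 and Oat had the highest Pearson r with Igf1r, of 0.985, 0.983 and 0.979. Synm, Rras2 and Rdh11 had the highest Pearson r with Igfbp4, of 0.992, 0.991 and 0.985. These r span the low ESC mutants and the high KO MKFs, and in Actg1 KO MEFs Igfbp4 was at -1.30 on the log2 scale, against 0.29 for Synm, 0.17 for Rras2 and -0.29 for Rdh11. Libraries of a group share their cells, so the 10 libraries stand for 5 mutant groups, and these values describe the likeness without a test.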

How the data were processed

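Total RNA was extracted with a miRNeasy micro kit and on-column DNase and made into libraries with the SMARTer Stranded Total RNA kit, per the labels' protocols. Tools listed in the submitters' processing notes, without their order, are DESeq2 1.14.1, Subread with featureCounts 1.6.0, STAR 2.5.3a and FastQC, and the build is mm10 (GRCm38). The handling of strand and of reads with several matches is not given in the sources used here. The deposited values are whole numbers that read as gene counts that the authors scaled library by library and then rounded, so they were treated as a score and not as raw counts, and are called normalised read counts. A count test, planned for raw counts, was therefore not run.

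Each of the 3 tables was fitted on its own on the log2(value + 1) scale with limma 3.58.1 (R 4.3.3), keeping all groups of the table in 1 fit, a trended prior and genes with a mean of at least 1. P-values were two-sided and adjusted by Benjamini-Hochberg over all genes tested, and a gene was called at an adjusted p below 0.05. The fit was tested on simulated data. Tables were made with Python 3.11.15, pandas 2.3.3 and numpy 2.4.6, and figures with matplotlib 3.10.9. Levels per length used the exons of GENCODE M21. Where a group was at 0, a bound on the fold used the value of 3 reads per library, which covers counting error only.

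The members, the gene lists and the tests were chosen with earlier results of these data known. Pathway genes were named by a rule: some were always named, and per list and comparison up to 4 called genes with a mean of at least 10 were eligible, by the size of the change. Other scalings, filters, pseudocounts, a replicate block and leaving out each library were tried. Same-numbered ESC libraries deviated together from their group means, with correlations of 0.678, 0.349 and 0.492 over 11369 genes. The labels give only numbers, so the block is given beside the ESC member calls it changes. For pathway genes it is given only between Actb KO and locus deletion.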

Additional observations from a re-analysis of the deposited data

Results flagged for a closer look

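The members and pathway genes below lay on opposite sides of wild type in the KO and the locus deletion of the same cell type. Both comparisons share their wild-type libraries, and the genes were picked for their opposite directions, which fixes the sign of the difference between KO and locus deletion. The values are therefore a description, with no p for that difference. In MEFs Igf1 had a log2 fold change of 4.74 in KO and -2.0 after locus deletion. Its -2.0 rests on 3 and 3 in wild type and 0 and 0 after locus deletion, near the value of 3 reads. Igfbp5 had 8.43 in KO and -4.84 after locus deletion, and Igfbp4 had -1.30 in KO and 0.70 after locus deletion.

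In ESCs Igf2 had a log2 fold change of 1.98 in KO and -1.70 after locus deletion. Lin28a, which binds let-7 precursors, had 1.23 in KO and -0.54 after locus deletion, and Igf2bp2 had -0.47 in KO and 0.47 after locus deletion. The ESC calls of Igf2, Lin28a and Igf2bp2 against wild type were each lost with any 1 of the 4 libraries left out. In MEFs Igf2 had 2.88 in KO and -1.23 after locus deletion, and Lin28b had 3.99 and -2.29 in the same order. The lower values after locus deletion rest on few reads. Lin28b had a mean of 4 in wild type and 0 after locus deletion, near the value of 3 reads. Igf2 had a mean of 9.5 in wild type and 3.5 after locus deletion. The proteases Htra1, at 4.11 in KO and -2.32 after locus deletion, and Pappa, at 1.86 and -0.78, showed the same directions. The Pappa call after locus deletion was lost without either wild-type library. Txnip had 2.44 in KO and -1.05 after locus deletion, Wisp2 had 2.74 and -1.22, and Sesn3 had 0.34 and -0.82. The Wisp2 call after locus deletion was lost without either wild-type library, and that of Txnip without wild-type library 1. Tsc2, an inhibitor of mTOR complex 1, had 0.45 in KO and -0.37 after locus deletion, and Crim1 had -0.44 and 0.39.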

How the results depend on the processing

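With 2 libraries per group, the counts of calls depended most on single libraries. None of the called differences changed sign in an alternative. Among member differences that were not called, 7 lay on both sides of 0 over the alternatives, such as Igfbp2 after Actb locus deletion (-0.62 to 0.11) and Igf1r in Actg1 KO (-0.07 to 0.07). Of 505 alternative log2 fold changes of members 452 moved by at most their standard error and 53 by more. With 1 library left out, members called numbered 0 to 1 in Actb KO, 0 to 1 after Actb locus deletion, 0 to 0 between these, and 2 to 3 after Actg1 locus deletion. Pathway genes called then numbered 0 to 0 in Actb KO, 1 to 4 after Actb locus deletion, 0 to 1 between these, 32 to 39 in Actg1 KO, 15 to 25 after Actg1 locus deletion, 30 to 45 between these and 18 to 34 in Kindlin-2 KO. In a fit of only the compared libraries, members called were 1, 1 and 0 and pathway genes 4, 7 and 4 in Actb KO, Actb locus deletion and between these. The share of all genes called is not given here for fits of only the compared libraries or with a library left out. Counts from those fits are therefore not read as a result about these genes. Between Actb KO and locus deletion, members called were 3 with a pseudocount of 5, 3 with a mean of at least 10, 2 with sums without genes over 1 percent of a library, 2 with upper-quartile scaling and 3 with the replicate block, and pathway genes called were 17 with the block. Over all genes the block called 1850, 3727 and 1735 genes in the 3 Actb comparisons, against 1126, 2580 and 1125 without it. In MEFs wild-type numbers ran against those of the mutants (correlations of -0.211 and -0.302). With crossed numbers in the block 6 and 5 members and 54 and 36 pathway genes were called in KO and locus deletion against wild type. Of 21589 genes 8815 and 5006 were called in these 2 comparisons with crossed numbers. The pairing correlation in MKFs was -0.095. Members with values near 3 reads, such as Igfbp5 in MKFs, were limited by depth.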
